A study of Mus musculus with 98 samples.

Results

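Short 5' overhangs that lie far from a RAG break at Jk1 were followed in mouse pre-B cells that cannot join their broken ends. The end structures were selected on 2 measured values in each table of ends: a 5' overhang of 1 to 9 nt, and a more resected strand that stops at table position 22 or beyond, which is 20 nt past the lowest position of 2. That choice was made with the shares of reads in these tables known, so the size of the class and its differences between genotypes at Jk1 are given as a description. The class held 430 of the 2039 different end structures listed at Jk1, and the tables of the whole series list 13564 structures in all. In these ends the 3'-ending strand is always the shorter one, so each end is written here as a span, from where the 5'-ending strand stops to where the 3'-ending strand stops. The 4-nt overhang from 137 to 141 is an example.

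The measurements came from HCoDES (hairpin capture of DNA end structures), in which a single-stranded DNA ligase closes a broken end into a hairpin that is then treated with bisulfite, amplified and sequenced. The cells, Abelson-transformed pre-B lines held in G1, carried breaks made by the RAG recombinase at Jk1 (Igkj1), a joining segment of the immunoglobulin kappa locus. Every Jk1 line, controls included, lacked DNA ligase IV (Lig4-/-). Lines A and B had only that deletion, lines 5 and 8 also lacked the histone variant H2AX (Lig4-/- H2AX-/-), and a single line B also lacked 53BP1 (Lig4-/- 53BP1-/-). The sample titles give 48 h for all lines except H2AX-deficient line 5, whose titles give no time, and the titles of Lig4-/- line B carry a tag, shNT, that the labels do not explain. H2AX-deficient line 8 was sequenced in run 2 and the other 4 lines in run 4. Each Jk1 table pools the reads of 3 libraries, so the cell line is the replicate: 2 lines for each of the first 2 genotypes and 1 for the last. The tables held 315274 and 304805 reads for the Lig4-/- lines, 170853 and 157970 for the H2AX-deficient lines and 258051 for the 53BP1-deficient line. The tables do not state whether the ends are coding or signal ends, and no sequence is printed here for them.

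As background, DNA ligase IV seals breaks in non-homologous end joining, the pathway that normally joins RAG breaks in G1. H2AX is phosphorylated in the chromatin around a break, where it helps to hold repair factors, and 53BP1 is recruited to that chromatin. Both are known to restrain resection, the nucleolytic trimming of DNA ends. Resection in its usual form removes the 5'-ending strand and leaves a 3' overhang. The ends described here have the opposite polarity: the 5'-ending strand protrudes by a few nucleotides and both strands stop far from the break.

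Ends of this kind took up a small share of the reads in the cells that lacked only ligase IV and 35.1% or more in the cells that also lacked H2AX or 53BP1. The class held 8.21% of reads in Lig4-/- line A and 13.3% in Lig4-/- line B, a mean of 10.8% ± 3.62 (SD, n = 2 lines). It held 38.8% in H2AX-deficient line 5 and 38.5% in line 8, a mean of 38.6% ± 0.213 (SD, n = 2 lines), and 35.1% in the 53BP1-deficient line. The means thus lay 27.9 percentage points apart for H2AX and 24.4 for 53BP1. The Lig4-/- and H2AX-deficient lines were separated by at least 25.1 points and the 53BP1-deficient line lay at least 21.8 points above both Lig4-/- lines, while lines of the same genotype differed by at most 5.12 points. The exact binomial 95% interval of each share was narrow, 8.11 to 8.31% for Lig4-/- line A and 34.96 to 35.32% for the 53BP1-deficient line. These intervals take reads as independent molecules, which reads from PCR without molecular identifiers are not. They may therefore be too narrow even for counting error, and they do not cover differences between lines.

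**Figure D1:**
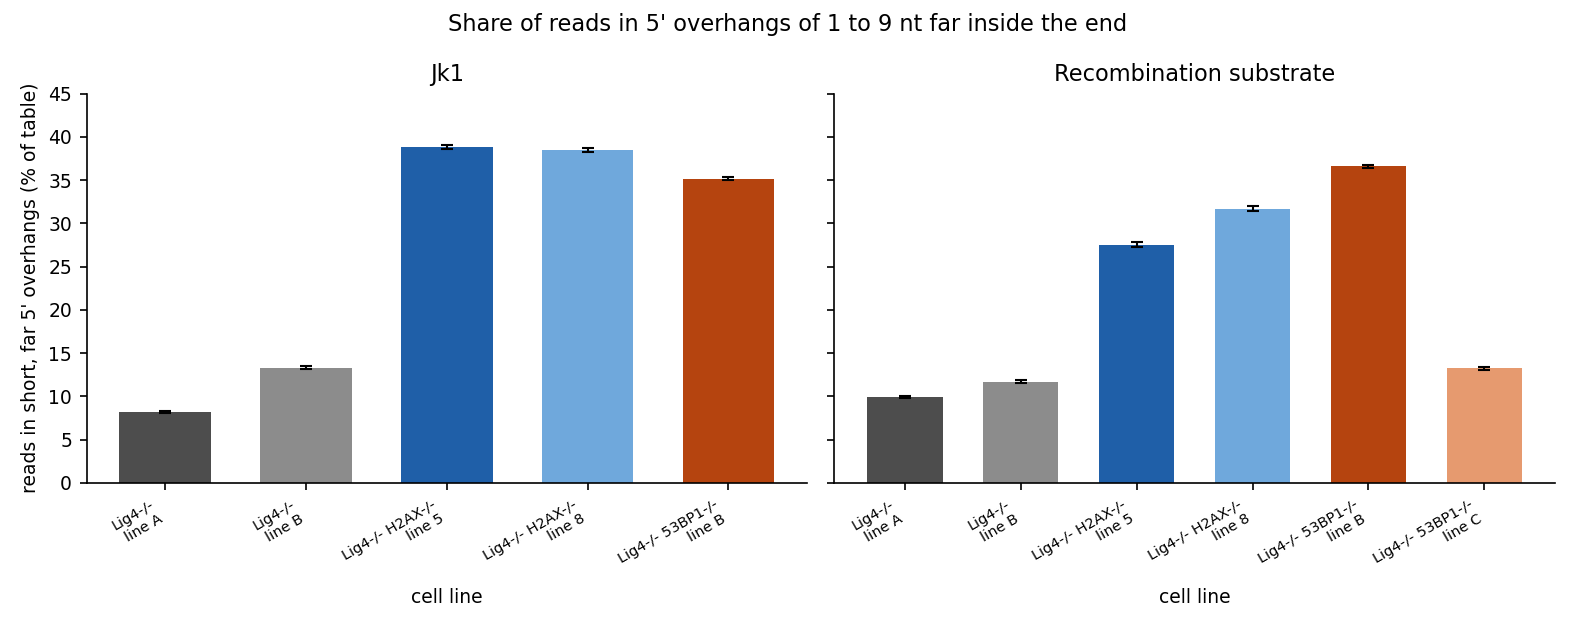
Share of reads (percent of each table, linear axis from 0) in 5' overhangs of 1 to 9 nt far from the break, at Jk1 on the left and at the recombination substrate on the right. Each bar is 1 cell line and the error bars are exact binomial 95% intervals; at Jk1 the bars of the Lig4-/- lines stand at 8.21% and 13.3% and the others at 35.1% or more, while at the substrate the lower of the 53BP1-deficient bars stands at 13.3%.

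The 3 lines without H2AX or 53BP1 also had more far ends in all than the Lig4-/- lines. All ends at position 22 or beyond, whatever their overhang, held 23.0% and 43.5% of reads in the Lig4-/- lines, 84.5% and 82.1% in the H2AX-deficient lines and 84.1% in the 53BP1-deficient line. Among these far ends alone, the class held 35.6% and 30.6% of reads in the Lig4-/- lines, 45.9% and 46.8% in the H2AX-deficient lines and 41.8% in the 53BP1-deficient line. The groups did not overlap on this measure either. The mean differences were 13.2 points for H2AX and 8.66 points for 53BP1, against at most 5.01 points between lines of a genotype. The 53BP1 difference depended on where the class ends: with overhangs of at most 4 nt the 53BP1-deficient line lay below the Lig4-/- mean, at a difference of -2.21 points.

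Among far reads, ends with the opposite polarity, 3' overhangs of 1 to 9 nt, were highest in the Lig4-/- lines and lowest in the 53BP1-deficient line. They held 40.7% and 46.2% of far reads in the Lig4-/- lines, 22.3% and 22.03% in the H2AX-deficient lines and 9.17% in the 53BP1-deficient line. This order did not hold as a share of all reads. There they held 9.38% and 20.1% in the Lig4-/- lines, 18.9% and 18.1% in the H2AX-deficient lines and 7.71% in the 53BP1-deficient line. The H2AX-deficient lines thus lay between the Lig4-/- lines on that measure. For each far read with a short 3' overhang there were 0.875 and 0.664 reads of the class in the Lig4-/- lines, 2.05 and 2.13 in the H2AX-deficient lines and 4.56 in the 53BP1-deficient line. The Lig4-/- lines therefore had more short 3' than short 5' overhangs among their far ends, and the other 3 lines had more short 5' overhangs. Far 5' overhangs of 10 nt or more held 7.41% and 9.05% of far reads in the Lig4-/- lines, 11.4% and 14.7% in the H2AX-deficient lines and 28.9% in the 53BP1-deficient line. Far 3' overhangs of 10 nt or more held 8.96% and 8.00% of far reads in the Lig4-/- lines, 17.4% and 10.4% in the H2AX-deficient lines and 16.8% in the 53BP1-deficient line. As a share of far reads, long 3' overhangs, unlike short ones, were thus also higher in these 3 lines. Far blunt ends were a minor kind in all 5 lines, at 3.07% to 7.25% of far reads.

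**Figure D2:**
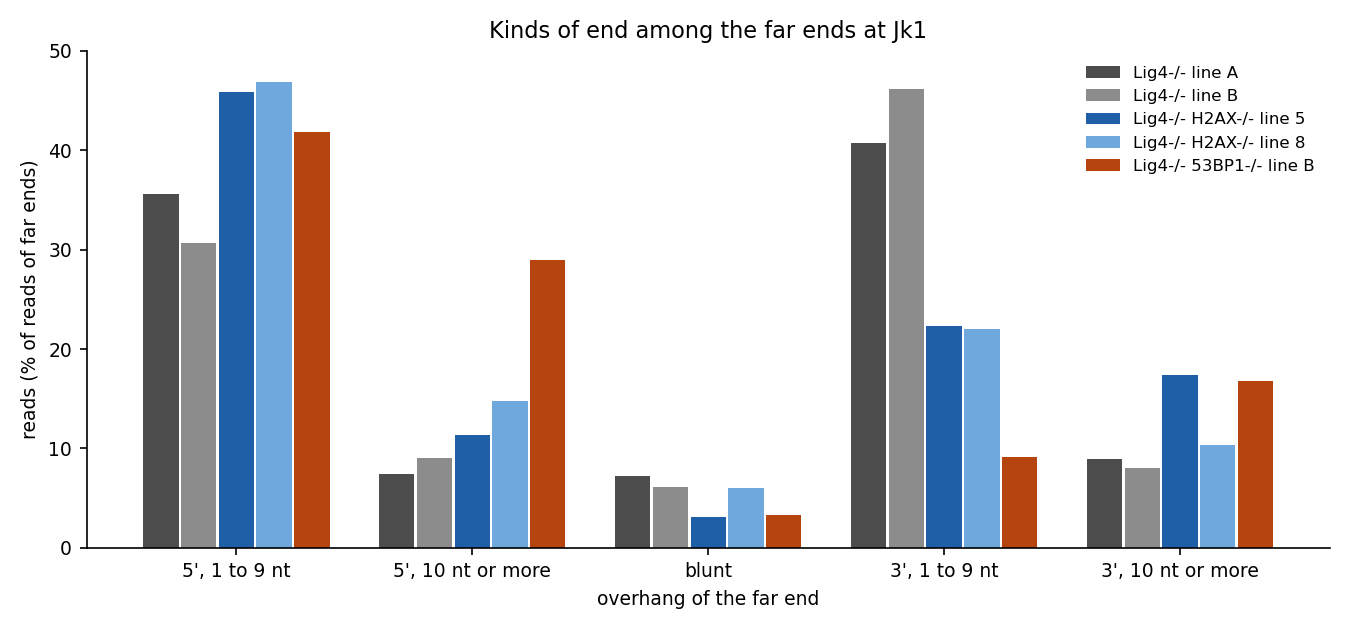
Kinds of end among the far ends at Jk1, as percent of the reads of all far ends in each line (linear axis from 0), 1 bar per cell line and no error bars. Short 5' overhangs run from 30.6% to 46.8% and short 3' overhangs from 46.2% down to 9.17%, with the Lig4-/- lines highest for short 3' overhangs and lowest for short 5' overhangs.

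Short 5' overhangs close to the break did not share this order as a share of all reads. Those below position 22 held 10.4% and 8.73% of reads in the Lig4-/- lines, 3.95% and 5.42% in the H2AX-deficient lines and 3.86% in the 53BP1-deficient line. Among the near ends alone they held 13.5% and 15.5% in the Lig4-/- lines, 25.5% and 30.4% in the H2AX-deficient lines and 24.3% in the 53BP1-deficient line. Short 5' overhangs thus made up a larger part of the near ends as well as of the far ends in the H2AX-deficient and 53BP1-deficient lines.

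Ends just inside and just outside the thresholds are given without a test. Members whose 3'-ending strand stops at 22, just inside the threshold, held 0.101% and 0.0807% of reads in the Lig4-/- lines, 0.139% and 0.158% in the H2AX-deficient lines and 0.0527% in the 53BP1-deficient line. Short 5' overhangs that stop at 21, just outside it, held 0.247%, 0.423%, 0.296%, 0.116% and 0.0221% in the same order. For length, far 9-nt overhangs held 0.0400%, 0.349%, 0.581%, 2.76% and 4.00% of reads and far 10-nt overhangs 0.0936%, 0.344%, 0.931%, 1.46% and 2.16%.

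The number of different members was also unequal. The tables listed 147 and 137 members in the Lig4-/- lines, 171 and 166 in the H2AX-deficient lines and 259 in the 53BP1-deficient line. Members made up 19.7% and 20.2% of the structures in the Lig4-/- tables, 24.96% and 27.7% in the H2AX-deficient tables and 24.2% in the 53BP1-deficient table. Among far structures alone they made up 27.1% and 28.0%, then 30.6% and 33.3%, and 27.7% in the same order. On that measure the 53BP1-deficient line lay between the Lig4-/- lines. Each member carried on average 176 and 297 reads in the Lig4-/- tables, 387 and 366 in the H2AX-deficient tables and 350 in the 53BP1-deficient table. Reads were spread unevenly over the members. The 10 most abundant held 33.9% to 43.8% of the reads of the class in each of the 5 tables, and the 3 most abundant held 14.3% to 25.1%.

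The lengths of the overhangs were not even. A 4-nt overhang was the most frequent length in every line, with 27.9% and 32.9% of the class in the Lig4-/- lines, 30.4% and 25.6% in the H2AX-deficient lines and 16.4% in the 53BP1-deficient line. The 53BP1-deficient line lay below the 4 others at that length. Its overhangs were longer: those of 5 to 9 nt held 46.1% of its class, against 19.4% and 32.3% in the Lig4-/- lines and 30.9% and 27.5% in the H2AX-deficient lines. The 9-nt overhangs alone held 11.4% of the class in the 53BP1-deficient line and 7.18% in H2AX-deficient line 8, but 0.487%, 2.62% and 1.499% in Lig4-/- lines A and B and H2AX-deficient line 5. As shares of all reads, every length from 1 to 9 nt was higher in both H2AX-deficient lines and in the 53BP1-deficient line than in either Lig4-/- line. The 4-nt overhangs held 2.29% and 4.39% of reads in the Lig4-/- lines, 11.8% and 9.85% in the H2AX-deficient lines and 5.75% in the 53BP1-deficient line. The 3-nt overhangs held 0.875% and 0.565%, then 3.78% and 3.78%, and 4.26% in the same order.

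**Figure D3:**
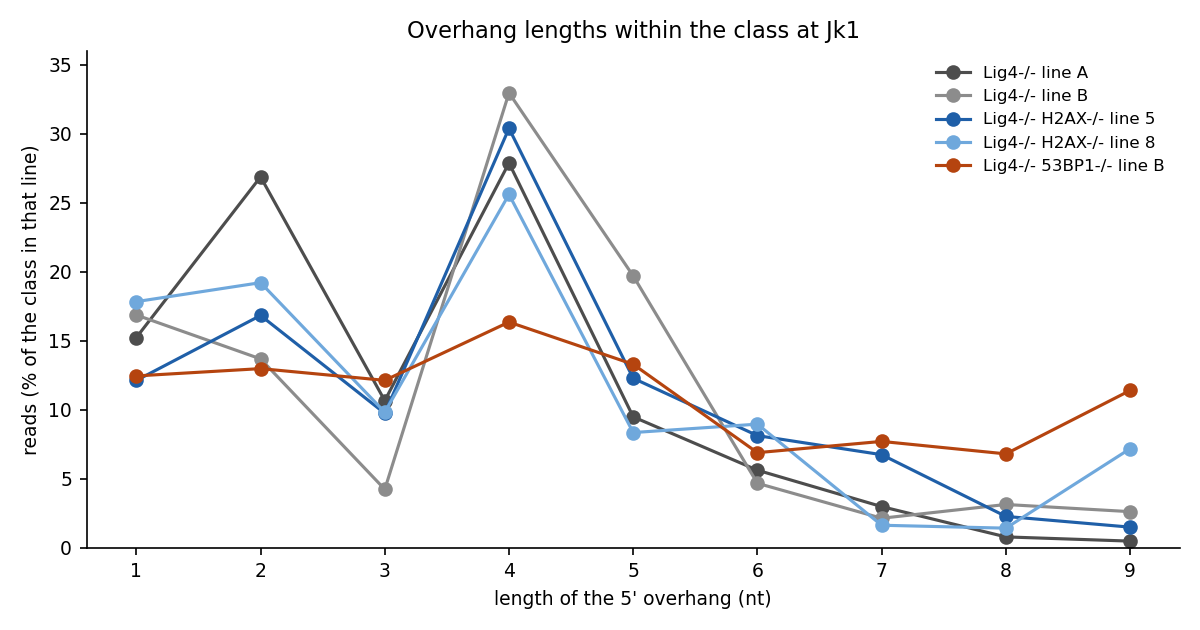
Length of the 5' overhang (nt) against its share of the class in each line (percent of the reads of the class, linear axis from 0), 1 curve per cell line. All curves have their highest point at 4 nt, at 25.6% to 32.9% in 4 lines and 16.4% in the 53BP1-deficient line, whose curve is the highest at 7, 8 and 9 nt.

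Members lay farther from the break in the lines that lacked H2AX or 53BP1. The median position of the 3'-ending strand, weighted by reads, was 92 and 127 in the Lig4-/- lines, 132 and 140 in the H2AX-deficient lines and 141 in the 53BP1-deficient line. The 2 Lig4-/- lines differed by 35 nt, more than the 5 nt that separated line B from H2AX-deficient line 5. Members that stop at 140 to 159 held 1.98% and 4.04% of reads in the Lig4-/- lines, 14.2% and 20.9% in the H2AX-deficient lines and 21.2% in the 53BP1-deficient line. Members at 22 to 39, the stretch nearest the break, held 2.01% and 2.36% in the Lig4-/- lines, 3.78% and 1.79% in the H2AX-deficient lines and 1.01% in the 53BP1-deficient line, so the groups overlapped there. The stretch from 22 to 79 held 43.6% and 30.1% of the class in the Lig4-/- lines, 20.6% and 9.57% in the H2AX-deficient lines and 9.75% in the 53BP1-deficient line. No member lay beyond 161, although the tables reach 3'-strand positions of 168 to 192, and longer resection would leave the amplified window and not be seen.

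**Figure D4:**
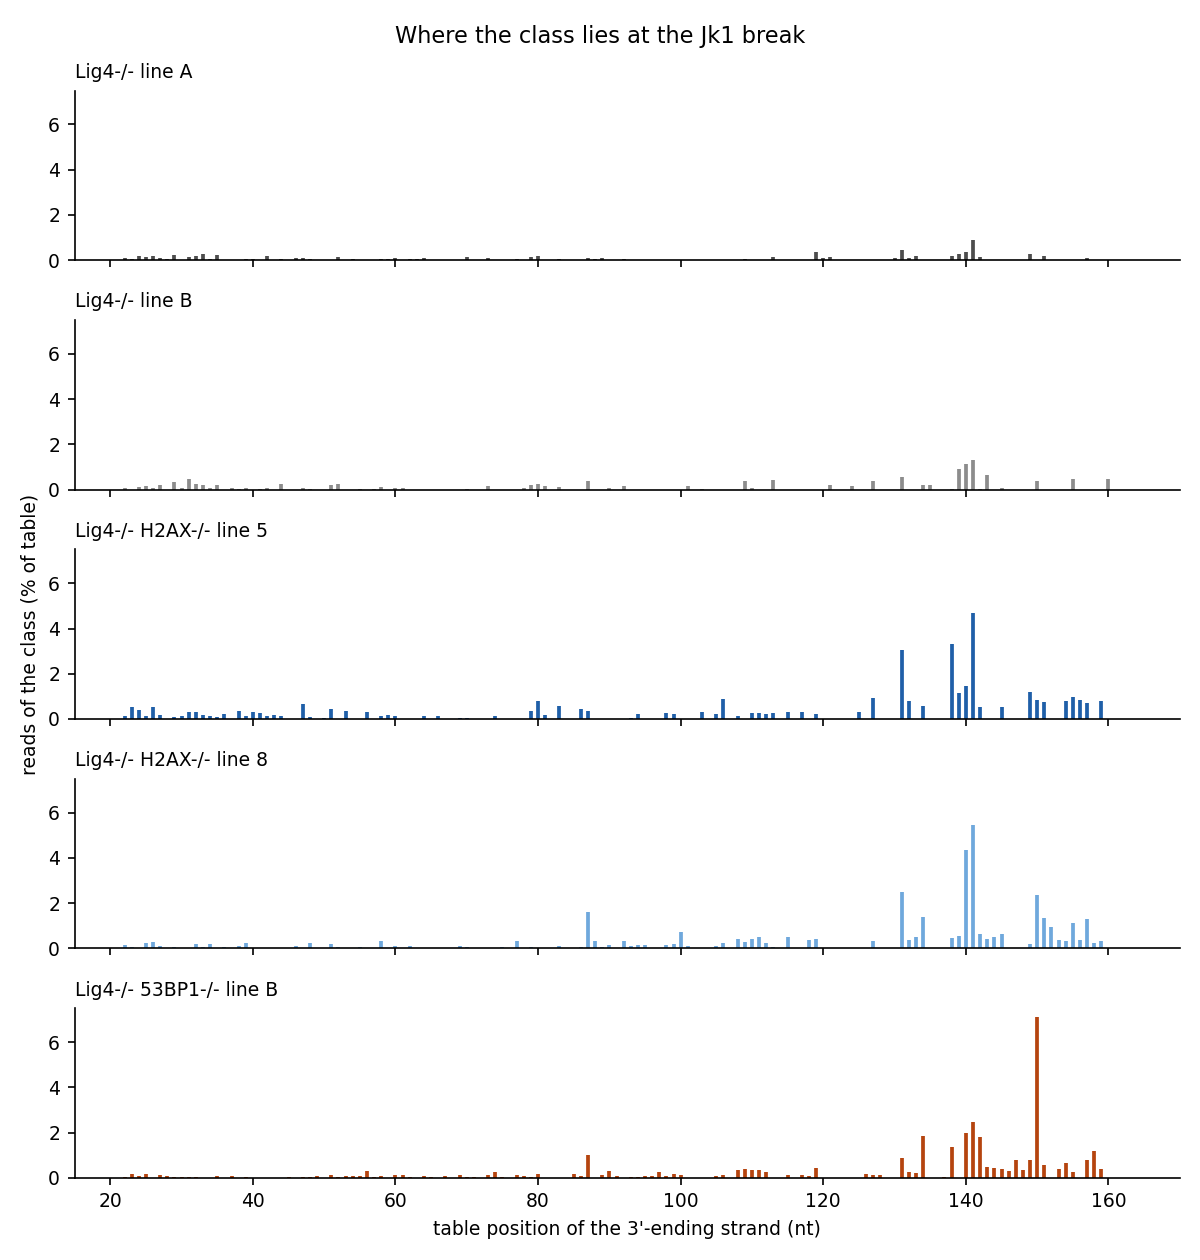
Reads of the class by the table position where the 3'-ending strand stops (nt, 22 and beyond; not a genome coordinate), as percent of all reads of the table, 1 panel per cell line on a shared linear axis. The tallest line stands at position 141 in the Lig4-/- and H2AX-deficient panels, at 0.882%, 1.32%, 4.70% and 5.44%, and at 150 in the 53BP1-deficient panel, at 7.09%.

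The class was concentrated at a few 3'-strand positions, and position 141 led in 4 of the 5 lines. Members ending there held 0.882% and 1.32% of reads in the Lig4-/- lines, 4.70% and 5.44% in the H2AX-deficient lines and 2.48% in the 53BP1-deficient line. Members ending at 140 held 0.379%, 1.14%, 1.48%, 4.33% and 1.99% in the same order. Members ending at 131 held 0.435% and 0.570%, then 3.06% and 2.48%, and 0.875%. From 7 to 13 positions carried 50% of the class in each line. The number of positions used, 81 and 82 in the Lig4-/- lines, 97 and 86 in the H2AX-deficient lines and 110 in the 53BP1-deficient line, was much larger.

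The most abundant member was the 4-nt overhang from 137 to 141 in 4 of the 5 lines and the 1-nt overhang from 139 to 140 in H2AX-deficient line 8. The 4-nt overhang held 0.882% and 1.32% of reads in the Lig4-/- lines, 3.53% and 3.46% in the H2AX-deficient lines and 1.89% in the 53BP1-deficient line. The H2AX-deficient lines were higher than both Lig4-/- lines, by 2.40 points on average. In the edgeR quasi-likelihood fit its log2 fold change was 1.67 for H2AX, with an adjusted p of 0.293 (Benjamini-Hochberg over all structures), so it did not pass the test. The 4-nt overhang from 127 to 131 held 0.435% and 0.569% in the Lig4-/- lines, 3.06% and 2.48% in the H2AX-deficient lines and 0.528% in the 53BP1-deficient line. Here the H2AX-deficient lines stood above both Lig4-/- lines and the 53BP1-deficient line lay between the Lig4-/- lines. Its log2 fold change in the edgeR fit was 2.46 for H2AX, with an adjusted p of 0.475.

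The 1-nt overhang from 139 to 140 held 0.265% and 0.898% in the Lig4-/- lines, 1.03% and 3.73% in the H2AX-deficient lines and 1.59% in the 53BP1-deficient line. All 3 lines without H2AX or 53BP1 were above both Lig4-/- lines, and H2AX-deficient line 8 was the highest. The 9-nt overhang from 125 to 134 held 0.00412% and 0.216% in the Lig4-/- lines, 0.569% and 1.18% in the H2AX-deficient lines and 1.55% in the 53BP1-deficient line, where it was among the 3 most abundant members. The 2-nt overhang from 147 to 149 was among the 3 most abundant in H2AX-deficient line 5 at 1.21% but held 0.205% in line 8, and 0.284% and 0.00131% in the Lig4-/- lines. It shows how far single members differed between lines of a genotype.

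Among the other named members, the 3-nt overhang from 139 to 142, the most abundant of its length, held 0.122% and 0.00262% of reads in the Lig4-/- lines, 0.00176% and 0.635% in the H2AX-deficient lines and 1.01% in the 53BP1-deficient line. The 8-nt overhang from 119 to 127, the most abundant of its length, was not listed in Lig4-/- line A, and held 0.392% in Lig4-/- line B, 0.787% and 0.108% in the H2AX-deficient lines and 0.00155% in the 53BP1-deficient line. In both cases the lines of a genotype lay far apart and the H2AX-deficient lines overlapped the Lig4-/- lines. The 53BP1-deficient line lay above both Lig4-/- lines for the 3-nt overhang and between them for the 8-nt overhang. The 2-nt overhang from 117 to 119 held 0.312% in Lig4-/- line A, where it was among the 3 most abundant, was not listed in Lig4-/- line B, and held 0.214%, 0.217% and 0.126% in the other 3 lines. The 2-nt overhang from 149 to 151 was listed in neither Lig4-/- table and held 0.76% and 0.343% in the H2AX-deficient lines and 0.298% in the 53BP1-deficient line. Its edgeR adjusted p was 0.711 for H2AX and 0.871 for 53BP1.

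One member passed the test. The 2-nt overhang from 139 to 141 was not listed in either Lig4-/- table, which list structures with 2 reads or more, and held 0.555% of reads in H2AX-deficient line 5, 1.56% in line 8 and 0.0546% in the 53BP1-deficient line. It was higher in both H2AX-deficient lines, with a log2 fold change of 14.3 and an adjusted p of 0.0166 in the edgeR quasi-likelihood test. With no reads listed in either Lig4-/- table, it had enough reads to be tested only through the other lines. The size of its fold change thus rests on the absence of listed reads. With no lower limit on reads, its adjusted p in the same test was 0.0227. Under 9 other settings of the fit its adjusted p ran from 0.000496 to 0.769, and it stayed under the threshold in 5 of them. It was lost when any single Lig4-/- or H2AX-deficient line was left out, with adjusted p of 0.218 and 0.0983 without Lig4-/- lines A and B and 0.63 and 0.769 without H2AX-deficient lines 5 and 8. For 53BP1 its adjusted p was 0.398, and 0.0986 to 1 under the other settings.

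The same fit tested 338 of the 430 members, those with 50 reads or more over the 5 tables. For H2AX, 1 member was called higher and 0 lower, while 0.069% of all 1450 structures tested were called higher and 0.345% lower. For 53BP1 the fit called 0 members in either direction, while 0% of all structures tested were called higher and 0.207% lower. At an unadjusted p under 0.05 in the same edgeR fit there were 9 members for H2AX, among 28 of all structures tested (1.93%), and 6 for 53BP1, among 16 (1.1%). DESeq2 on the same counts differed in its scaling too, with factors it estimated itself in place of table totals. It called 61 members higher and 2 lower for H2AX, among 236 structures higher (16.3%) and 17 lower (1.17%). For 53BP1 it called 19 members higher and 5 lower, among 49 structures higher (3.38%) and 16 lower (1.1%). Fisher's exact test on pooled reads, which takes reads as independent, called 29 members higher and 9 lower for H2AX when every pair of tables had to pass, among 54 structures higher (3.72%) and 140 lower (9.66%). For 53BP1 it called 154 members higher and 26 lower, among 529 structures higher (36.5%) and 191 lower (13.2%).

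By plain order of the values, 38 of 430 members (8.84%) were higher in both H2AX-deficient lines than in either Lig4-/- line, compared with 4.22% of all 2039 structures. In the opposite direction there were 21 members (4.88%), compared with 11.4% of all structures. For the single 53BP1-deficient line, 205 members (47.7%) were higher than in both Lig4-/- lines, compared with 37.3% of all structures, and 40 (9.3%) were lower, compared with 14.7%. All structures include ends near the break. Among the 1376 far ends outside the class, 3.13% were higher and 6.69% lower for H2AX, and 38.8% were higher and 8.43% lower for 53BP1. Members were thus not less often lower than other far ends in the 53BP1-deficient line. Of the members that were higher, 14 of the 38 and 136 of the 205 were listed in neither Lig4-/- table. The matching counts over all structures were not made. The median difference over the 430 members was 0.000585 points for H2AX and 0 for 53BP1, beside a median of 0 over all structures in both.

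Members that were lower lay mostly nearer the break: 17 of the 21 for H2AX and 31 of the 40 for 53BP1 stopped below position 80, compared with 10 of the 38 and 70 of the 205 that were higher and 192 of all 430. Structures outside the class were not compared in this way. The 4-nt overhang from 25 to 29 held 0.218% and 0.356% of reads in the Lig4-/- lines, 0.00293% in H2AX-deficient line 5 and 0.0178% in the 53BP1-deficient line, and was not listed in H2AX-deficient line 8. The 2-nt overhang from 33 to 35 held 0.108% and 0.176% in the Lig4-/- lines, 0.0737% in H2AX-deficient line 5 and 0.000775% in the 53BP1-deficient line, and was not listed in H2AX-deficient line 8. An exception in position was the 1-nt overhang from 120 to 121, with 0.119% and 0.193% in the Lig4-/- lines and no reads listed in the other 3 tables. For 53BP1, the 2-nt overhang from 137 to 139 held 0.147% and 0.444% in the Lig4-/- lines and 0.00116% in the 53BP1-deficient line, with 0.299% and 0.562% in the H2AX-deficient lines. The 6-nt overhang from 27 to 33 held 0.208% and 0.201% in the Lig4-/- lines, 0.194% and 0.0532% in the H2AX-deficient lines and 0.00155% in the 53BP1-deficient line. The edgeR adjusted p of these 5 members ran from 0.73 to 1 over both genotypes.

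The 53BP1-deficient line had its own leading position. At 150, a position singled out after its values were seen, it listed 8 members whose 5'-ending strand stopped at each position from 141 to 148, so that the overhangs formed a ladder of 2 to 9 nt in steps of 1 nt. From 9 nt down to 2 nt they held 0.866%, 0.863%, 0.958%, 0.644%, 1.46%, 1.00%, 0.708% and 0.589% of its reads. No rung from 2 to 9 nt was missing in that line and the highest was at 5 nt. No table listed a 1-nt member at 150, and 9 nt is the limit of the class. Together they held 7.09% of the reads and 20.2% of the class in the 53BP1-deficient line. The same 8 members held 0.00634% and 0.393% of reads in the Lig4-/- lines, and 0.848% and 2.36% in the H2AX-deficient lines. Of the 8, H2AX-deficient line 8 listed 7, with 1.24% of reads in the 9-nt overhang, and line 5 listed 5, with 0.571% in the 6-nt overhang. Lig4-/- lines A and B each listed 6, more than H2AX-deficient line 5. With 10 reads or more there were 0 and 3 in Lig4-/- lines A and B, and 3 and 5 in H2AX-deficient lines 5 and 8.

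Setting the 53BP1-deficient line directly against the H2AX-deficient lines in the edgeR fit called 0 members in either direction, and 0% of all structures tested were called higher or lower. At an unadjusted p under 0.05 there were 2 members among 4 structures (0.276%), and DESeq2 called 3 members higher and 37 lower, among 9 structures higher (0.621%) and 177 lower (12.2%). The ladder at 150 and the longer overhangs of the 53BP1-deficient line are values of 1 line.

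**Figure D5:**
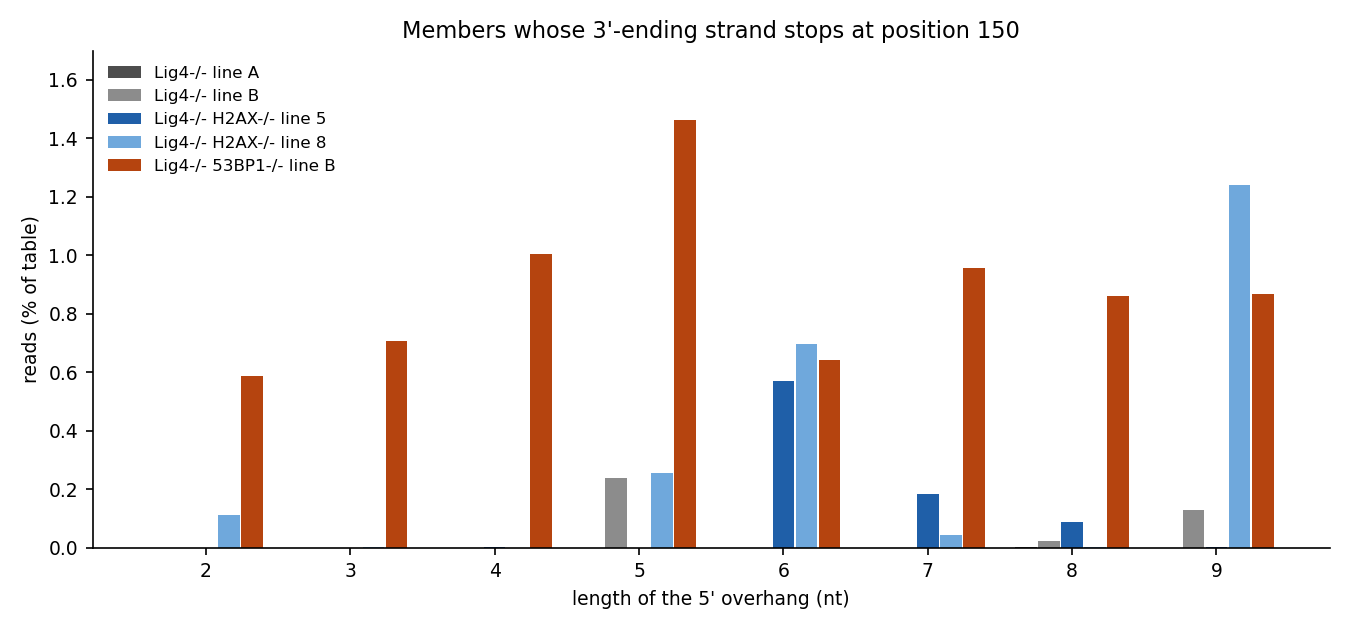
Members whose 3'-ending strand stops at position 150, by overhang length (nt), as percent of all reads of the table (linear axis from 0), 1 bar per cell line. The 53BP1-deficient line has a bar at every length from 2 to 9 nt, between 0.589% and 1.46%, and each other line lacks 10 reads or more at 3 lengths or more.

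None of these 8 members passed the edgeR fit for either genotype. The 6-nt overhang from 144 to 150 held 0.571% and 0.698% in the H2AX-deficient lines and 0.644% in the 53BP1-deficient line, against 3 reads in each Lig4-/- table, with adjusted p in the edgeR fit of 0.73 for H2AX and 0.871 for 53BP1. The 4-nt overhang from 146 to 150 held 1.00% in the 53BP1-deficient line and at most 2 reads in every other table. Far ends of other kinds also stopped at 150: 5' overhangs of 10 nt or more held 1.73% of reads in H2AX-deficient line 8 and 1.46% in the 53BP1-deficient line, and 3' overhangs held 1.38% in Lig4-/- line B. No table listed a blunt end at 150.

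Most members were seen in few lines. Of the 430, 202 were listed in 1 table, 105 in 2, 57 in 3, 33 in 4 and 33 in all 5. The 33 listed everywhere held 3.40% and 6.07% of reads in the Lig4-/- lines, 16.1% and 16.7% in the H2AX-deficient lines and 11.9% in the 53BP1-deficient line. They made up 33.8% to 45.6% of the class in each line, and among them too both H2AX-deficient lines and the 53BP1-deficient line lay above both Lig4-/- lines. Members listed in neither Lig4-/- table held 10.4% of reads in H2AX-deficient line 5, 12.8% in line 8 and 12.2% in the 53BP1-deficient line. The 53BP1-deficient line alone listed 89 members, H2AX-deficient line 8 listed 47 and line 5 listed 33 that no other line had. The Lig4-/- lines listed 20 and 13 such members. The tables also differed in length. They held 745 and 678 structures of all kinds in the Lig4-/- lines, 685 and 600 in H2AX-deficient lines 5 and 8 and 1070 in the 53BP1-deficient line. How many structures outside the class were listed in a single table was not counted, so these counts are not shown to be particular to the class.

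Read numbers of a member could differ greatly between tables. Of the 43 members with 1000 reads or more in some table, 29 had under 10 reads in at least 1 other. Each table listed between 36 and 67 members with under 10 reads. A member with 2 or 3 reads in 1 table and over 1000 in another is at the lower limit of what these tables list, and whether such reads were carried over between libraries was not tested.

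The positions at which members stop were partly those used by other far ends. Across 186 positions of the 3'-ending strand, Spearman's rho between the reads of members and the reads of all other far ends was 0.265 and 0.322 in the Lig4-/- lines, 0.287 and 0.447 in the H2AX-deficient lines and 0.437 in the 53BP1-deficient line (Pearson's r 0.173, 0.0662, 0.281, 0.434 and 0.476). Across 175 positions of the 5'-ending strand rho was 0.282, 0.299, 0.352, 0.37 and 0.519 in the same order. These values describe positions of 1 table, which share its libraries, and carry no test.

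The Jk1 lines and a further Lig4-/- 53BP1-/- line, C, also carried RAG breaks at a chromosomal recombination substrate, in tables the rule did not use. Far ends of all kinds held 39.4% and 39.2% of reads there in the Lig4-/- lines, 94.5% and 90.9% in the H2AX-deficient lines and 95.9% and 97.2% in the 53BP1-deficient lines B and C. Short 5' overhangs at position 22 or beyond there held 9.95% and 11.7% of reads in the Lig4-/- lines, a mean of 10.8% ± 1.22 (SD, n = 2 lines), and 27.5% and 31.7% in the H2AX-deficient lines, a mean of 29.6% ± 2.95 (SD, n = 2 lines). The groups did not overlap, but an exact two-sided permutation test of 2 lines against 2 cannot go below p = 0.333. The 53BP1-deficient lines were split, with 36.6% in line B and 13.3% in line C, a mean of 24.9% ± 16.5 (SD, n = 2 lines). Line B was the one measured at Jk1, and line C was sequenced in run 6 and its table also lists structures with 1 read. The labels give no time for line C, and describe 1 of its 3 libraries as mixed with distal substrate PCR sequences. In line C, 3 structures held 51.9% of the class. The higher share of the class at Jk1 in the 53BP1-deficient genotype thus rests on line B.

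Among far ends at the substrate the class did not separate the genotypes. It held 25.2% and 29.8% of far reads in the Lig4-/- lines, 29.2% and 34.9% in the H2AX-deficient lines and 38.2% and 13.6% in the 53BP1-deficient lines. The Lig4-/- and H2AX-deficient values overlapped. As a control of the method, DNA cut by the enzyme KpnI, which leaves a known 4-nt 3' overhang, was also read. It gave 698 of 307425 reads in 5' overhangs of 1 to 9 nt. That is 0.227%, with an exact binomial 95% interval of 0.211 to 0.245%. The sign of the overhang was set from the most abundant structure of this control, so its polarity is not an independent result. The share shows only that few of its reads were listed with a short 5' overhang. The control is 1 library of an enzyme cut, and it does not check how resected ends are called.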

How the data were processed

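End structures were measured by HCoDES in 5 cell lines with RAG breaks at Jk1, and the same class was read in 6 tables of the recombination substrate and in a KpnI control. Each deposited table gives, per the file headers, a position, an overhang and a count of reads for each end structure. The read counts deposited by the authors are whole numbers, are not normalised, and pool the libraries of a group, per the labels. For the aligner, read filters and genome build, nothing is given in the sources used here. The sign of the overhang was taken from KpnI, whose most abundant structure has the value 4. All 5 Jk1 tables list structures with 2 reads or more. Another 2 tables repeat values already used and were left out, and 0 sample columns were left unmapped.

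Shares are reads of the class over the table total, with Clopper-Pearson 95% intervals. Lines were averaged with equal weight. Structures with 50 reads or more over the 5 tables were tested with edgeR 4.0.16 in R 4.3.3 (quasi-likelihood, library size as table total, no composition scaling, Benjamini-Hochberg threshold 0.05). The single 53BP1-deficient line was assumed to vary like the others. DESeq2 1.42.0, with its own scaling factors in place of table totals, and Fisher's exact test were alternatives. The edgeR step was tested on simulated data with known changes and a spread between lines smaller than that of these tables, which checks the arithmetic only. Nothing in the labels says whether libraries came from separate cultures, so the spread measured is that between lines.

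The class, the comparisons and the naming rule were chosen with earlier results of these data known. The rule named the 3 most abundant members in each table, the 5 largest rises and falls for each genotype among members on the same side of both Lig4-/- lines, the most abundant member of each length, and the 5 smallest edgeR p-values for each genotype. It gave 23 members, of which those that show each pattern are described. The software was Python 3.11.15 with scipy 1.17.1, pandas 2.3.3, matplotlib 3.10.9 and numpy 2.4.6.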

Additional observations from a re-analysis of the deposited data

Results flagged for a closer look

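At the threshold of the class, members whose 3'-ending strand stops at position 22 were higher in both H2AX-deficient lines than in either Lig4-/- line (0.139% and 0.158% of reads against 0.101% and 0.0807%, a difference of means of 0.0575 points) and lower in the 53BP1-deficient line (0.0527%). The H2AX-deficient and 53BP1-deficient lines thus lay on opposite sides of the Lig4-/- lines, and that difference was not tested. It rests on 2 structures.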

How the results depend on the processing

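The share of the class kept its direction for both genotypes under every alternative run, and moved by less than the spread between Lig4-/- or H2AX-deficient lines in 10 of 13 for H2AX and 7 of 11 for 53BP1. Counting each structure once reduced the difference to 6.35 points for H2AX and 4.24 for 53BP1, leaving out the 10 most abundant members gave 20.6 and 19.8, and a longest overhang of 4 nt gave 19.5 and 11.1. With a longest overhang of 14 nt the 53BP1 difference was 32.2 points. Among far ends, counting structures once gave 4.45 points for H2AX and 0.156 for 53BP1, and a longest overhang of 4 nt gave 8.07 for H2AX and reversed 53BP1 to -2.21, while 14 nt gave 16.7 for 53BP1. The cause of these changes was not tested. Leaving out each line in turn gave 25.3 to 30.4 points for H2AX and 21.8 to 26.9 for 53BP1 in share of reads, and 10.7 to 15.7 and 6.15 to 11.2 among far ends.

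The number of structures called at Jk1 depended on the tool, and DESeq2 also scaled the tables differently from the edgeR fit. How much of its change came from scaling was not tested. Against 6 for H2AX and 3 for 53BP1 in the edgeR fit, DESeq2 called 253 and 65, Fisher's exact test, passed by every pair, called 194 and 720, and TMM scaling 7 and 1. Leaving out each line in turn gave 0 to 8 for H2AX and 0 to 3 for 53BP1, with 0 for both without H2AX-deficient line 5 or line 8. Without line 8 only sequencing run 4 remains, and the share difference was then 28.0 points for H2AX. Depth limits single members: 36 to 67 per table had under 10 reads. No paired analysis was possible because each table pools its libraries and the lines of different genotypes carry no shared replicate number.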
